A study of Mus musculus with 36 samples.

Results

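Circular RNAs from 7 host genes whose circles are widely studied and conserved were examined: Hipk3, Hipk2, Zfp609, Cdyl, Rtn4, Stau2 and Zfp644. A circular RNA (circRNA) was assigned to a gene when both of its ends lay inside the gene on the gene's strand in the GENCODE M21 annotation of GRCm38. By this rule 56 of the 33259 listed circRNAs belonged to the 7 genes, which were 7 of 6709 host genes. The questions were how far a main circle dominated each gene, whether the tissues differed, and whether the levels were stable over the day.

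The samples were hippocampus and frontal cortex of C57BL/6 mice kept on a 12:12 h light-dark cycle, given as C57BL6/N, male and 9 to 10 weeks old in the study's methods. Tissue was taken at zeitgeber times (ZT, hours after lights on) 1, 5 and 9 in the light phase and 13, 17 and 21 in the dark phase. Each of the 6 time points had 3 biological replicates per tissue, which gave 18 hippocampus and 18 cortex samples and 36 in all. Total RNA was sequenced after ribosomal RNA depletion, and the labels do not say whether the tissues came from the same animals.

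A circRNA forms when a downstream splice donor is joined back to an upstream splice acceptor, and sequencing reads across this back-splice junction mark the circle. Such circles lack free ends, are long-lived compared with most linear transcripts, and are abundant in neurons. The host genes examined have varied roles. Hipk3 and Hipk2 encode homeodomain-interacting protein kinases, Zfp609 and Zfp644 encode zinc finger proteins, and Cdyl encodes a chromodomain Y-like transcriptional corepressor. Rtn4 encodes the reticulon known as Nogo, and Stau2 encodes a double-stranded RNA-binding protein of dendritic RNA transport.

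Circular read totals per sample had a lowest value of 6754, a median of 21923.5 and a highest of 73252 in hippocampus. In cortex the lowest total was 8107, the median 20301 and the highest 34803. The tables list a circRNA in a sample from 2 reads upward, so a 0 means that none was listed there. A back-splice read is counted at a single junction, so levels were not divided by the length of the circle, and they are compared between circles as junction reads only.

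A pair of libraries stood apart from the rest. Hippocampus ZT13 replicate 1 had the lowest hippocampus total (6754 reads), listed 0 reads for 33.7% of the tested circRNAs, and had a correlation of 0.523 with the mean of the other libraries of its tissue. Cortex ZT9 replicate 3 had the lowest cortex total (8107 reads), listed 0 reads for 33.9% of them, and had a correlation of 0.537. The next lowest correlation was 0.740 and the median over all 36 libraries was 0.857. The results below are given with all libraries, and each tissue call on a single listed circle is followed by its value without this pair.

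The 7 genes together gave 7896 back-splice reads, 4331 in hippocampus and 3565 in cortex. Their share of all circular reads was 1.00% ± 0.0577 (SD, n = 18) in hippocampus and 0.969% ± 0.151 (SD, n = 18) in cortex. The shares ranged from 0.926% to 1.12% in hippocampus and from 0.419% to 1.11% in cortex. The lowest cortex share, 0.419%, belonged to ZT9 replicate 3 (Wilson 95% interval 0.300% to 0.585%), and the other cortex samples lay within the hippocampus range or just below it. Binomial intervals here and below cover counting error only.

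Of the 56 circles, 51 were found in hippocampus, 37 in cortex and 32 in both. Of all 33259 circRNAs, 23730 were found in hippocampus, 19811 in cortex and 10282 in both. Hippocampus also had more circular reads in total (431196, compared with 362041 in cortex). Both ends coincided with exon boundaries of the gene in 44 of the 56 (78.6%), compared with 71.7% of all circRNAs with a host gene. A total of 21 circles were found in only 1 sample, and 60.6% of all circRNAs were. Presence in at least 2 replicates of a time point was met by 28 of the 56. The filter on low counts then left 9 circles for the test between tissues, 9 for the time tests in hippocampus and 6 for those in cortex. The 7 main circles, meaning the circle with the most reads of each gene, held 5768 reads or 73.0% of the genes' total. Shares of a main circle count listed reads only, so a circle below 2 reads in a sample does not enter them.

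The kinase gene Hipk3 had 6 circles and was almost entirely a 1-circle gene. Its main circle, chr2:104470749-104471847 on the minus strand, was exon 2 of transcript Hipk3-203 alone and was 1099 nt long. Introns of 22100 nt and 24113 nt flanked it upstream and downstream. It held 1197 of 1218 hippocampus reads, or 98.3% (Wilson 95% interval 97.4% to 98.9%), and 1027 of 1031 cortex reads, or 99.6% (99.0% to 99.8%). The second circle, exons 9 to 14 of the same transcript, had 12 reads in 4 hippocampus samples and none listed in cortex. The annotated start codon lay 2 nt after the start of the exon 2 circle. Read around the circle, this frame ran 365 codons to the junction and a further 22 beyond it before a stop codon, which is a property of the annotated sequence and was not measured as translation.

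Levels of the Hipk3 exon 2 circle were the highest among the 7 genes. Reads were scaled by edgeR's trimmed mean of M-values (TMM) to the mean effective library, and on this scale hippocampus had a lowest value of 23.0, a median of 61.8 and a highest of 83.4. Cortex had a lowest of 24.4, a median of 62.5 and a highest of 78.7. The ranges of the tissues overlapped almost completely, and the lowest sample in each was the shallow library described above. Among 6656 circRNAs kept in either tissue the circle ranked 27th by mean level in hippocampus and 21st in cortex.

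Hipk2, the paralogous kinase gene, was scarce by comparison. It had 4 circles with 31 reads in hippocampus and 26 in cortex. The main circle was again exon 2 alone (transcript Hipk2-206, chr6:38818230-38819313, minus strand, 1084 nt), between introns of 56485 nt and 70232 nt. It held 26 of the hippocampus reads, or 83.9% (Wilson 95% interval 67.4% to 92.9%), and 24 of the cortex reads, or 92.3% (75.9% to 97.9%). It was found in 9 of 18 samples of each tissue, with 5 reads at most in hippocampus and 4 in cortex. At ZT9 in cortex no replicate listed it. None of the Hipk2 circles passed the filter for the tests, so no difference between tissues or times could be examined at this depth.

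The exon 2 circles of both kinase genes are closely matched at the junction, which is shown because it is the sequence by which each is recognised. Lower case marks the last 15 nt before the back-splice donor and capitals mark the first 15 nt after the acceptor, both read from the annotated transcripts.
Hipk3 exon 2: atctcgctactacagGTATGGCCTCACAAG
Hipk2 exon 2: atccagatactaccgGTATGGCCTCACATG
They shared 25 of 30 positions, with 14 of 15 on the acceptor side and 11 of 15 on the donor side. The mean normalized level was 60.8 ± 12.4 for Hipk3 and 1.23 ± 1.33 for Hipk2 in hippocampus (SD, n = 18 each). In cortex the means were 60.8 ± 11.9 and 1.46 ± 1.59 (SD, n = 18 each), and every sample had more of the Hipk3 circle.

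Zfp609 also produced mainly an exon 2 circle (transcript Zfp609-201, chr9:65794622-65795495, minus strand, 874 nt), between introns of 31970 nt and 63420 nt. Of 6 circles it held 758 of 789 hippocampus reads, or 96.1% (Wilson 95% interval 94.5% to 97.2%), and 532 of 557 cortex reads, or 95.5% (93.5% to 96.9%). The second circle shared its acceptor and extended to exon 3 (chr9:65730976-65795495). It had 18 reads in 6 hippocampus samples and 21 reads in 6 cortex samples. The annotated start codon was 127 nt into the exon 2 circle, and its frame met a stop codon 1 codon past the junction after 249 codons.

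The Zfp609 exon 2 circle had normalized levels from a lowest of 27.9 through a median of 35.7 to a highest of 57.4 in hippocampus. Cortex ran from 8.14 through 30.3 to 43.1. Hippocampus was higher at 6 of 6 time points by mean, but the samples overlapped widely and only 3 hippocampus samples exceeded every cortex sample. The junctions of the exon 2 circle and the exon 2 to 3 circle differ only on the donor side (lower case, as above).
Zfp609 exon 2: gtcaagtctgaaaagCAATGATGTTGTCCA
Zfp609 exons 2 to 3: aggaaacagaagatgCAATGATGTTGTCCA

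Rtn4 was the remaining gene in which 1 circle held nearly all reads. Its main circle joined exons 2 and 3 of transcript Rtn4-205 (chr11:29705535-29708770, plus strand, 2418 nt of exon sequence), between introns of 11841 nt and 24862 nt. It held 287 of 293 hippocampus reads, or 98.0% (Wilson 95% interval 95.6% to 99.1%), and 226 of 226 cortex reads, or 100.0% (98.3% to 100.0%). The other 3 circles had 2 reads each, each in a different hippocampus sample. Normalized levels of the main circle had a lowest value of 8.58, a median of 15.0 and a highest of 22.5 in hippocampus. In cortex they ran from 6.11 through 14.1 to 21.1, so the tissues overlapped over almost the whole range. The junction is given as for the genes above.
Rtn4 exons 2 to 3: tgaataaaacttcagATGAGACCCTTTTTG

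Cdyl divided its reads between 2 circles, both found in every sample. The shorter, chr13:35815909-35816575 on the plus strand, was exon 5 of transcript Cdyl-201 alone (667 nt) between introns of 25733 nt and 40087 nt. The longer, chr13:35790101-35816575, used the same donor but the acceptor of exon 4, which gave 742 nt of exon sequence after an intron of 106262 nt. Because the donor is shared, the lower case part of the junction is the same and the capitals tell the circles apart.
Cdyl exon 5: ctgttaatggaaaagGTGGAAAGTATCGTT
Cdyl exons 4 to 5: ctgttaatggaaaagCAAAATAATGTGGTT
The exon 5 circle held 398 of 603 hippocampus reads, or 66.0% (Wilson 95% interval 62.1% to 69.7%), and 515 of 709 cortex reads, or 72.6% (69.2% to 75.8%).

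Stau2 was the most divided gene, with 23 circles that shared 300 reads in hippocampus and 276 in cortex. Its main circle, exons 3 to 5 of transcript Stau2-202 (chr1:16463035-16509408, minus strand, 358 nt), held 28.3% of the hippocampus reads (Wilson 95% interval 23.5% to 33.7%) and 22.8% of the cortex reads (18.3% to 28.1%). The next circles were exons 3 to 13 (chr1:16345704-16509408) with 46 and 57 reads and exons 3 to 9 (chr1:16389821-16509408) with 31 and 60 reads, in hippocampus and cortex respectively. In cortex these 3 circles had nearly the same number of reads (63, 57 and 60), and their order is within counting error. All 3 start at the acceptor of exon 3. That acceptor was used by 7 circles and by 370 of the gene's 576 reads (64.2%), whereas the reads were spread over many donors. Pooled over both tissues the most used donor was chr1:16389821, with 28.8%. It led in cortex (33.7%), while chr1:16463035 led in hippocampus (29.0%, compared with 24.3%). The shared capitals below show the common acceptor.
Stau2 exons 3 to 5: tcaataataacccagTTTTGTGGAGCTGTG
Stau2 exons 3 to 13: attcaaggctttcagTTTTGTGGAGCTGTG
Stau2 exons 3 to 9: aaaacaatagtaaagTTTTGTGGAGCTGTG

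Normalized levels of the Stau2 main circle had a median of 4.25 and a highest of 9.13 in hippocampus, and a median of 3.59 and a highest of 8.90 in cortex. It was listed in 16 hippocampus and 13 cortex samples, and the lowest value was 0 in both. No Stau2 circle passed the filter for the tests. Summed over its circles the gene had 14.6 ± 6.82 normalized reads in hippocampus and 15.9 ± 7.01 in cortex (SD, n = 18 each), about the level of the Rtn4 sum (15.2 ± 4.44 and 13.5 ± 4.41), although its most abundant circle was well below that of Rtn4.

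Zfp644 was the other divided gene, and its circles followed a grid of 2 acceptors and 2 donors. It had 11 circles with 1097 reads in hippocampus and 740 in cortex, and all 11 were found in both tissues. The acceptors of exon 3 (chr5:106638635) and exon 2 (chr5:106666845) of transcript Zfp644-204, on the minus strand, received 1042 and 691 reads. The main circle, chr5:106618071-106638635, had 630 reads, which was 33.0% of the hippocampus reads (Wilson 95% interval 30.3% to 35.8%) and 36.2% of the cortex reads (32.8% to 39.7%). The other combinations had similar counts, with 292 reads for chr5:106634831-106638635, 288 for chr5:106618071-106666845 and 288 for chr5:106634831-106666845.

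The nearer donor, chr5:106634831, is the end of exon 4. The farther donor, chr5:106618071, held 1008 of the gene's reads (54.9%) but was not an exon end in any annotated Zfp644 transcript. It lay inside the last exon, exon 6 (chr5:106616739-106618428), 168 nt past the last coding base, and the next 2 bases of the transcript were GT, the bases with which most introns begin. The choice of donor differed with the acceptor. Of the reads that joined an acceptor to either of these 2 donors, 68.3% (630 of 922) went to the far donor from the exon 3 acceptor (Wilson 95% interval 65.3% to 71.3%), and 50.0% (288 of 576) from the exon 2 acceptor (45.9% to 54.1%). By tissue the first share was 65.2% in hippocampus and 73.0% in cortex, and the second 49.4% and 50.9%, so the difference between acceptors had the same direction in both tissues. These shares are pooled reads, and no test across samples was run on them.

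The 4 Zfp644 junctions below show the grid, with the donors in lower case and the acceptors in capitals.
Zfp644 exon 6 to exon 3: acttcagacaagacaACTAAAGGTGTTAAA
Zfp644 exon 4 to exon 3: tgactgtgcactcagACTAAAGGTGTTAAA
Zfp644 exon 6 to exon 2: acttcagacaagacaGCTTGATTTAAATTT
Zfp644 exon 4 to exon 2: tgactgtgcactcagGCTTGATTTAAATTT
With the annotated exons between its ends, the main circle would hold 4093 nt and the exon 2 to exon 4 circle 3693 nt. The internal splicing of a circle cannot be seen from its junction. A further donor, chr5:106632925, had 135 reads and lay in no exon of this transcript, 1906 nt beyond the end of exon 4. All Zfp644 circles also lie inside Gm28039, an annotated processed transcript on the same strand, so the reads of these genes cannot be told apart. Whether the far donor is an exon end of Gm28039 was not examined.

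**Figure D1:**
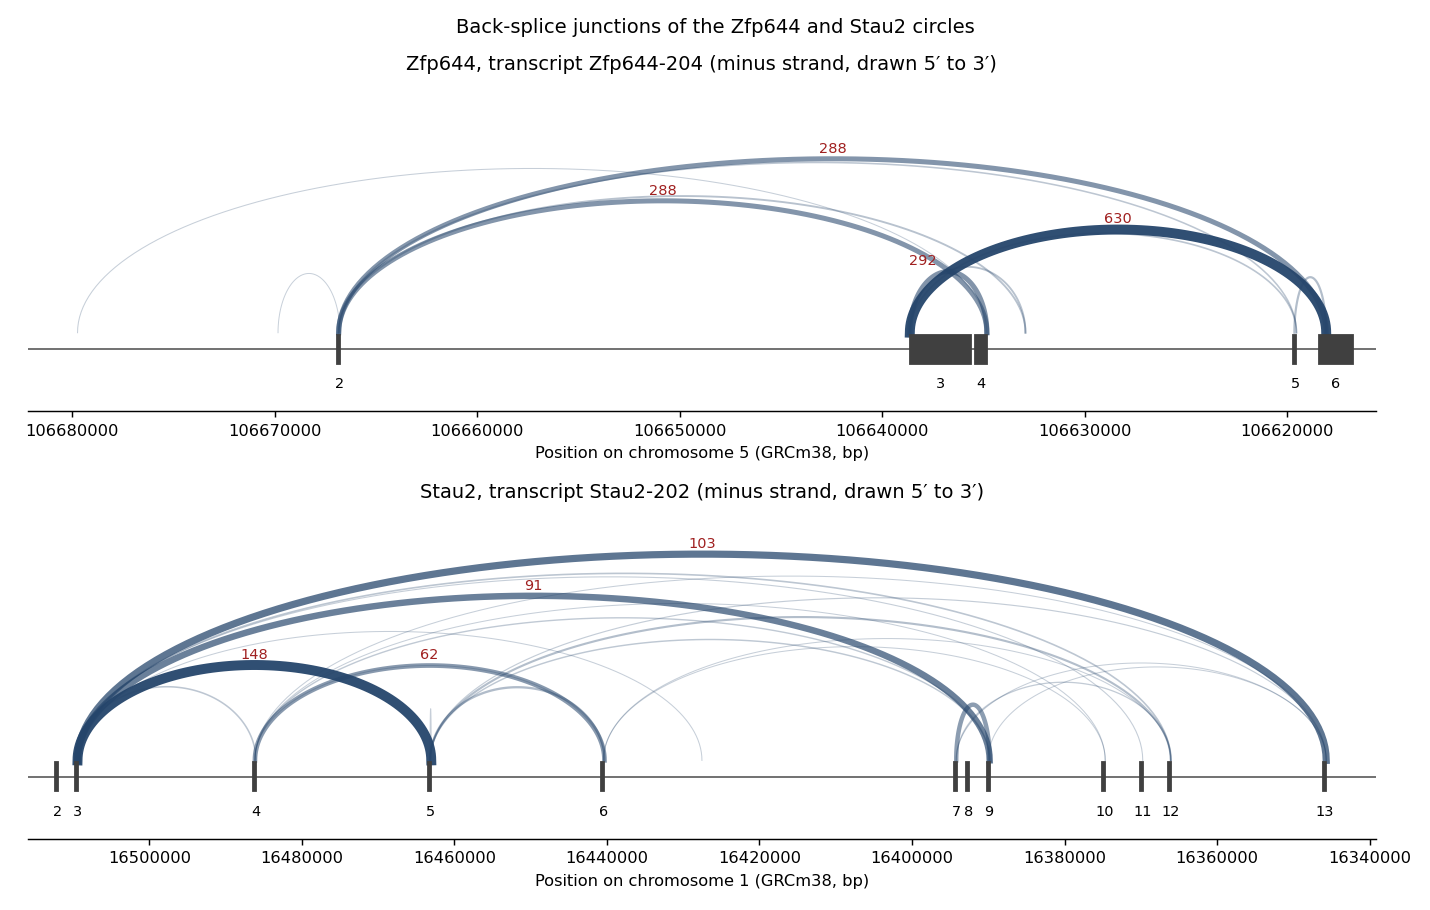
Map of the Zfp644 and Stau2 circles, with the position on the chromosome (GRCm38, bp) on the horizontal axis, drawn from 5′ to 3′, exons of the named transcript as numbered boxes, and each circle as an arc between its ends whose width follows its reads over all 36 samples, printed for the first 4 circles. The Zfp644 arcs (630, 292, 288 and 288 reads) share 2 acceptors and 2 donors, and the widest Stau2 arcs (148, 103 and 91 reads) start at the same acceptor in exon 3.

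**Figure D2:**
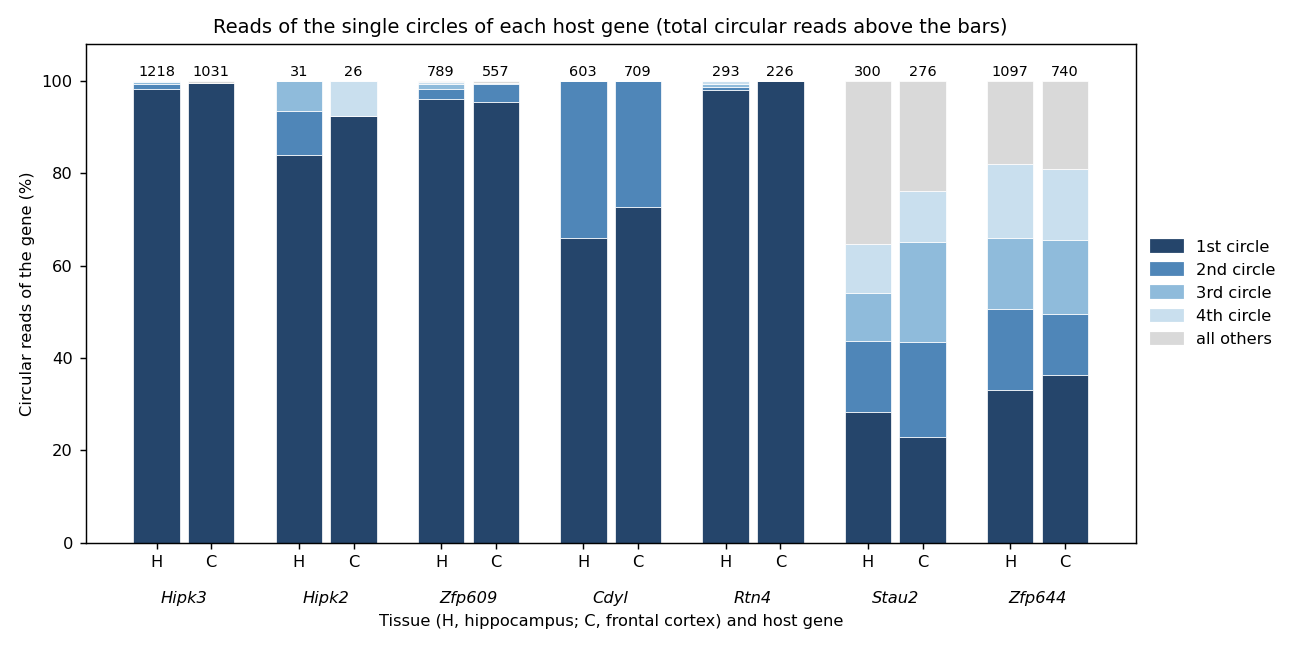
Stacked bars of the percent of each host gene's circular reads (vertical axis) held by its first 4 circles and all others, pooled over the 18 samples of hippocampus (H) or frontal cortex (C), with the total reads above each bar. The main circle takes 98.3% and 99.6% in Hipk3 (hippocampus and cortex), 66.0% and 72.6% in Cdyl, 33.0% and 36.2% in Zfp644 and 28.3% and 22.8% in Stau2.

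Set against other hosts, Hipk3, Rtn4 and Zfp609 were among the genes most dominated by a main circle, and Stau2 and Zfp644 among the less dominated. Over the 322 host genes with at least 500 reads, the median share of the main circle was 58.4% and the median number of circles was 15. Only 35 of these genes (10.9%) had a share of 95% or more. Pooled over both tissues, the share was 98.9% for Hipk3, 98.8% for Rtn4, 95.8% for Zfp609 and 69.6% for Cdyl. Zfp644 (34.3%) and Stau2 (25.7%) lay below the median, and 264 and 299 of the 322 genes had a share at least as high. Hipk2, at 87.7%, had too few reads for this comparison.

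Most main circles had few exons. Among 5463 kept circRNAs on exon boundaries, 5.44% consisted of a single exon, and the median was 4 exons and 562 nt. Of the 6 main circles with both ends on exon boundaries, only that of Stau2 (358 nt) was below this median length. The others held 667 to 2418 nt. Single-exon circles were 4 of the 6 (Hipk3, Hipk2, Zfp609 and Cdyl). Their flanking introns were all longer than the medians over the kept circRNAs (13058 nt before and 10972 nt after). Those of Rtn4 and Stau2 were longer after the circle (24862 nt and 22576 nt) but shorter before it (11841 nt and 2521 nt). Single-exon circles were 9.32% of those tested between tissues that lie on exon boundaries, so the share was higher among abundant circles in general.

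Within samples, dominance was close to constant in the 1-circle genes. The main circle's share per sample was 98.7% ± 1.80 in hippocampus and 99.5% ± 1.45 in cortex for Hipk3 (SD, n = 18 each), and the lowest cortex sample was at 94.6%. For Zfp609 it was 96.0% ± 4.49 and 95.8% ± 6.38, with lowest samples of 87.9% and 80.6%. For Rtn4 it was 98.0% ± 4.79 in hippocampus (lowest 83.3%), and every cortex sample was at 100.0% of listed reads. In these genes the median sample of both tissues lay at or above 98.2%, and the samples overlapped fully.

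The Cdyl exon 5 circle had a share with a lowest value of 40.9%, a median of 65.2% and a highest of 78.9% in hippocampus, and of 48.6%, 73.3% and 88.6% in cortex. Cortex lay above the hippocampus median in 16 of 18 samples, but most of the ranges overlapped and 4 cortex samples exceeded every hippocampus sample. The means were 64.9% ± 9.99 and 73.4% ± 8.78 (SD, n = 18 each), a difference of -8.44 percentage points (hippocampus minus cortex). A 2-sided permutation test within time points gave p = 0.00682 and an adjusted p of 0.204 (Benjamini-Hochberg over 773 host genes), so the shift in composition did not pass the correction.

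For Stau2 the share was 29.1% ± 13.1 in hippocampus and 23.5% ± 15.7 in cortex (SD, n = 17 each, samples with reads), and for Zfp644 31.2% ± 10.1 and 34.8% ± 12.6 (SD, n = 18 each). None of the 6 listed genes in the test passed the threshold, by the permutation test with Benjamini-Hochberg adjustment, and 1 of them had an unadjusted p under 0.05. Of all 773 genes 3 passed (0.388%) and 81 had an unadjusted p under 0.05. No other tool was run on the shares.

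Between the tissues, 2 of the 9 tested circles differed, the Cdyl exon 5 circle and the Zfp644 exon 4 to exon 3 circle. Over all 710 tested circRNAs the quasi-likelihood test of edgeR, adjusted by the Benjamini-Hochberg method, called 217 (30.6%), of which 117 were higher in hippocampus (16.5%) and 100 higher in cortex (14.1%). DESeq2 called 239 of the 710 and the same number of listed circles, 2. The listed circles were thus called no more often than circRNAs in general. In bulk tissue, fewer cells that make a circle and less of it per cell cannot be told apart.

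The Cdyl exon 5 circle had normalized levels with a lowest value of 10.1, a median of 18.7 and a highest of 29.9 in hippocampus. In cortex the lowest was 16.3, the median 31.7 and the highest 42.4. Cortex was the higher tissue at 6 of 6 time points, and 12 of 18 cortex samples exceeded every hippocampus sample. The means were 19.8 ± 5.84 and 31.4 ± 7.34 (SD, n = 18 each). By edgeR the log2 difference (hippocampus minus cortex) was -0.69 (SE 0.12, 95% interval -0.93 to -0.44, adjusted p = 4.77e-05), or 1.61-fold higher in cortex. Without the 2 libraries with the fewest reads it was -0.73 (edgeR, adjusted p = 2.61e-06).

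The longer Cdyl circle, which shares the donor, did not pass the test. Its normalized levels ran from 4.92 through a median of 10.2 to 17.5 in hippocampus and from 3.96 through 10.8 to 24.0 in cortex, with 3 time points higher in each tissue. The log2 difference was -0.14 (95% interval -0.50 to 0.22, edgeR adjusted p = 0.589). The intervals of both Cdyl circles overlap, and the difference between them was tested only as the share given above. Summed over both circles, Cdyl had 30.3 ± 6.99 normalized reads in hippocampus and 43.1 ± 10.6 in cortex (SD, n = 18 each).

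The Zfp644 exon 4 to exon 3 circle, chr5:106634831-106638635, was higher in hippocampus. Its normalized levels had a lowest value of 0, a median of 8.91 and a highest of 16.4 there, and 0, 5.83 and 11.7 in cortex. The tissues overlapped over most of their ranges, although 6 hippocampus samples exceeded every cortex sample and hippocampus was higher at 5 of 6 time points. The log2 difference was 0.69 (SE 0.25, 95% interval 0.18 to 1.20, edgeR adjusted p = 0.0357), a fold of 1.61. Without the 2 libraries with the fewest reads it was 0.76 (edgeR, adjusted p = 0.0141). Without filtering on low counts it was 0.75 and did not pass (edgeR, adjusted p = 0.0981). It also failed the threshold when any of 5 libraries was left out (edgeR, adjusted p up to 0.0716).

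The other 3 tested Zfp644 circles did not pass. The main circle, which differs from the called circle only in its donor, had normalized levels with a median of 19.1 and a highest of 24.2 in hippocampus and of 15.8 and 23.1 in cortex, with 0 as the lowest value in both. Its log2 difference was 0.18 (95% interval -0.20 to 0.56, edgeR adjusted p = 0.513). The values were 0.38 (95% interval -0.15 to 0.91) for the exon 6 to exon 2 circle and 0.33 (-0.12 to 0.78) for the exon 4 to exon 2 circle, with edgeR adjusted p = 0.297 and 0.280. By mean the exon 6 to exon 2 circle was higher in cortex at 4 of 6 time points, while the exon 4 to exon 2 circle was higher in hippocampus at 5. Cortex ZT1 replicate 3 was the only cortex sample of ZT1 that listed the exon 6 to exon 2 circle (9 reads), and leaving it out, which left that time point at 0, gave 1.20 (edgeR, adjusted p = 0.00648).

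The remaining main circles did not differ detectably. For Hipk3 the log2 difference was -0.01 (95% interval -0.24 to 0.22, edgeR adjusted p = 0.964), which bounds a tissue difference to at most 1.18-fold in either direction. That sign changed with scaling by total reads, without the filter on low counts and without the 2 libraries with the fewest reads. For Zfp609 it was 0.24 (SE 0.12, 95% interval -0.00 to 0.49, edgeR adjusted p = 0.129, unadjusted 0.0518), and for Rtn4 0.13 (95% interval -0.19 to 0.46, edgeR adjusted p = 0.573). The Zfp609 value passed (0.33, edgeR adjusted p = 0.0437) only when cortex ZT9 replicate 1 was left out, and it was 0.17 (edgeR, adjusted p = 0.177) without the 2 libraries with the fewest reads.

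Sums over all circles of a host gene gave the same genes. Of 802 host genes tested, edgeR's quasi-likelihood test called 252 (31.4%), 132 higher in hippocampus (16.5%) and 120 higher in cortex (15.0%), and 2 of the 6 listed genes tested were among them. Cdyl had a log2 difference of -0.52 (SE 0.11, edgeR adjusted p = 0.000354), and 9 cortex samples exceeded every hippocampus sample. Zfp644 had 53.6 ± 12.6 normalized reads in hippocampus and 43.3 ± 11.2 in cortex (SD, n = 18 each). Its log2 difference was 0.30 (SE 0.11, edgeR adjusted p = 0.0307), and it failed the threshold without filtering on low counts (0.34, edgeR adjusted p = 0.131) and when any of 12 libraries was left out (edgeR, adjusted p up to 0.0933). Values for the others were 0.24 for Zfp609, 0.16 for Rtn4, -0.13 for Stau2 and -0.00 for Hipk3, with edgeR adjusted p from 0.113 to 0.995.

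The tissue labels were checked against host genes that mark each region, by their circular reads only. The hippocampus list (4 of 4 genes with reads, led by Zbtb20) had 51.0 ± 14.2 normalized reads in hippocampus and 16.1 ± 7.25 in cortex (SD, n = 18 each). In it, Prox1, a marker of dentate granule cells, had a log2 difference of 4.42 (edgeR, adjusted p = 3.03e-08). The neocortex list (4 of 5 genes with reads, Rorb at 0) had 31.3 ± 9.36 and 26.2 ± 7.70, and its leading gene Tshz2 was higher in hippocampus (1.79). The neuron list (3 of 3 genes with reads, led by Syt1) had 22.5 ± 8.06 in hippocampus and 32.2 ± 11.6 in cortex. Of its genes Syt1, with 359 and 431 reads, was higher in cortex as Cdyl was (-0.58, edgeR adjusted p = 0.00737), Rbfox3 did not pass (-0.35, edgeR adjusted p = 0.594), and Snap25 had 0 and 5 reads. The list as a group was not tested, nor was its part in the Cdyl difference.

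Markers of glia were nearly absent from the circular reads. The oligodendrocyte list (2 of 3 genes with reads) had 11 reads in hippocampus and 0 in cortex. The astrocyte list had 33 and 17 reads, all from Slc1a2, with Aqp4 and Gfap at 0. The microglia list and the choroid plexus list had 0 reads, the striatum list 2 and 5, and the thalamus gene Tcf7l2 0 and 3. Few genes of these lists make listed circles at all, so these counts do not measure the cells.

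Over the day, none of the listed circles that passed the filter on low counts was called in a time test. In hippocampus edgeR's F test over the 6 time points called 0 of 582 circRNAs (0.0%), with 19 at an unadjusted p under 0.05 and 0 called by DESeq2. In cortex it called 1 of 518 (0.193%), not from a listed gene, with 12 unadjusted and 0 by DESeq2. Of the listed circles, 9 were tested in hippocampus and 6 in cortex, and 1 had an unadjusted p under 0.05.

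That circle was the Zfp644 exon 4 to exon 3 circle in hippocampus (n = 18, unadjusted p = 0.0261, edgeR adjusted p = 0.999). Its 3 samples had 6.07 to 9.13 normalized reads at ZT1, 3.69 to 8.63 at ZT5 and 14.4 to 16.4 at ZT9. In the dark phase they had 0 to 7.51 at ZT13, 10.6 to 12.6 at ZT17 and 7.89 to 15.5 at ZT21. All 3 ZT9 samples were above those of ZT1, ZT5, ZT13 and ZT17, and overlapped with ZT21. The lowest sample was the shallow library at ZT13. In cortex the circle did not pass the filter for the time tests, and its time-point means lay between 2.92 at ZT17 and 8.34 at ZT21.

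The Hipk3 exon 2 circle did not differ detectably over time. Its hippocampus means in the light phase were 61.5 ± 9.68 (ZT1), 69.0 ± 12.6 (ZT5) and 62.4 ± 4.64 (ZT9; SD, n = 3 each). In the dark phase they were 43.5 ± 17.9 (ZT13), 63.9 ± 11.3 (ZT17) and 64.4 ± 1.05 (ZT21). At ZT13 the shallow library was at 23.0 and the other samples at 51.2 and 56.3, which were also below the means of the other time points. Cortex means lay between 53.1 at ZT9 and 63.7 at ZT17, and the ZT9 mean again included the shallow library at 24.4, with 70.1 as the highest sample of that time point. The unadjusted p was 0.356 in hippocampus and 0.977 in cortex (edgeR F test, adjusted p = 0.999 and 0.998).

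The ratio of the highest to the lowest time-point mean gives the size of the movement that remained. For Hipk3 it was 1.59 in hippocampus and 1.20 in cortex, and for Zfp609 1.27 and 1.42. Cdyl had 1.73 and 1.59 (exon 5 circle), Rtn4 1.32 and 1.64, and Zfp644 1.45 and 1.57 (main circle). The median over all tested circRNAs was 1.80 in hippocampus and 1.78 in cortex, but this ratio shrinks with higher counts. Among tested circRNAs of a similar level the medians were 1.33 and 1.35 for Hipk3, 1.43 and 1.51 for Zfp609, 1.68 and 1.51 for Cdyl, 1.75 and 1.78 for Rtn4, and 1.70 and 1.71 for Zfp644. Against these, the ratio was below the median in both tissues for Zfp609, Rtn4 and Zfp644, and above it for Cdyl. For Hipk3 it was above the median, and above the upper quartile of 1.54, in hippocampus and below the median in cortex. Without the shallow library at ZT13 the Hipk3 ratio in hippocampus was 1.28, compared with a median of 1.29. Without the shallow cortex library at ZT9 the Cdyl ratio in cortex was 1.59, above the upper quartile of 1.52. With all libraries that quartile was 1.72. The other ratios kept their side of the median when the shallow library of their tissue was left out.

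The Cdyl exon 5 circle had its highest hippocampus mean at ZT1 (26.6, samples from 25.1 to 28.1) and its lowest at ZT9 (15.4, samples from 14.2 to 16.6). In cortex the highest mean was at ZT13 (40.5, samples from 39.3 to 42.4) and the lowest at ZT17 (25.5, samples from 16.3 to 34.2). In hippocampus the samples at ZT1 lay above those at ZT9 with no overlap, but the samples of ZT13, ZT17 and ZT21 spread over both levels. The unadjusted p was 0.229 in hippocampus and 0.338 in cortex (edgeR F test, adjusted p = 0.999 and 0.996).

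**Figure D3:**
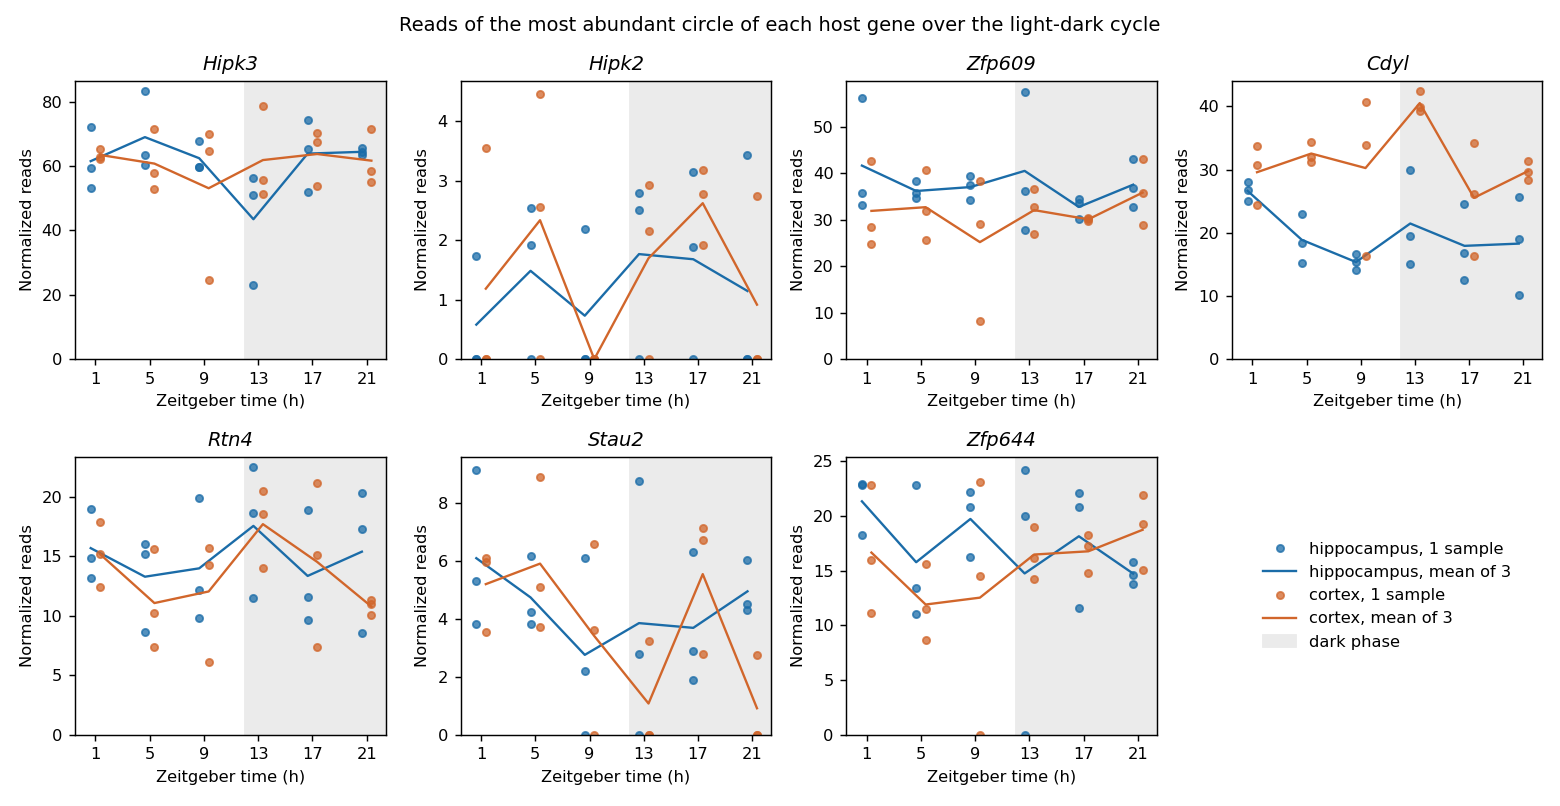
Normalized back-splice reads of the main circle of each listed gene (vertical axis, TMM-scaled reads) at the 6 zeitgeber times (horizontal axis, hours), with a point for each sample, lines through the means of 3 replicates, colours for the tissues and shading for the dark phase. The Cdyl circle is higher in cortex at 6 of 6 time points, while the Hipk3 circle has a mean of 60.8 in both tissues and its lowest samples are the shallow libraries at ZT13 (23.0) and ZT9 (24.4).

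Dark and light phases were compared as the mean of ZT13, ZT17 and ZT21 minus the mean of ZT1, ZT5 and ZT9. By edgeR 0 of 582 circRNAs were called in hippocampus (0.0%, 28 unadjusted, 0 by DESeq2) and 0 of 518 in cortex (0.0%, 16 unadjusted, 0 by DESeq2). For the Hipk3 circle the log2 difference was -0.16 (95% interval -0.47 to 0.14) in hippocampus and 0.05 (-0.28 to 0.37) in cortex. For Zfp609 it was -0.09 (-0.39 to 0.21) and 0.08 (-0.32 to 0.48), and for the Cdyl exon 5 circle -0.05 (-0.45 to 0.35) and -0.01 (-0.35 to 0.33). All of these intervals lay within 0.48 of 0 on the log2 scale.

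The intervals were wider for the less abundant circles. Rtn4 had 0.14 (95% interval -0.33 to 0.60) in hippocampus and 0.08 (-0.39 to 0.56) in cortex, and the Zfp644 main circle -0.19 (-0.69 to 0.32) and 0.27 (-0.26 to 0.80). The longer Cdyl circle had -0.04 (-0.51 to 0.44) in hippocampus and 0.49 (-0.08 to 1.06) in cortex. Only the Zfp644 exon 6 to exon 2 circle in hippocampus had an unadjusted p under 0.05, with -0.60 (-1.16 to -0.03, n = 18, p = 0.0394, edgeR adjusted p = 0.966).

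The same circle had the lowest p for an interaction between tissue and phase among the 9 listed circles tested. Its hippocampus means in the light phase were 13.2 ± 4.40 (ZT1), 6.52 ± 3.29 (ZT5) and 11.3 ± 3.34 (ZT9), and in the dark phase 5.48 ± 0.836 (ZT13), 6.46 ± 3.41 (ZT17) and 7.33 ± 1.52 (ZT21; SD, n = 3 each). In cortex they were 3.04 ± 5.27, 7.60 ± 1.14 and 2.71 ± 2.47 in the light and 6.41 ± 3.45, 8.40 ± 3.97 and 11.9 ± 2.73 in the dark. The phases overlapped within each tissue. The difference of the differences was -1.58 on the log2 scale (SE 0.52, n = 36, p = 0.00449), the third lowest p of all 710 circRNAs, and it did not pass the correction (edgeR adjusted p = 0.930).

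A rhythm was tested with sine and cosine terms of a 24-h period. In hippocampus edgeR called 0 of 582 (0.0%), with 13 unadjusted and 1 called by DESeq2, and in cortex 0 of 518 (0.0%), with 25 unadjusted and 1 by DESeq2. Without the filter on low counts the calls were 614 of 5505 in hippocampus (11.2%) and 521 of 4790 in cortex (10.9%). They included 4 of 25 listed circles in hippocampus (16.0%) and 2 of 24 in cortex (8.33%), each with 53 reads or fewer. With the filter no listed circle had an unadjusted p under 0.05, and the lowest was that of the longer Cdyl circle in cortex (n = 18, p = 0.0549, edgeR adjusted p = 0.916). Its cortex means in the light phase were 7.24 ± 3.35 (ZT1), 9.35 ± 3.11 (ZT5) and 12.4 ± 7.52 (ZT9; SD, n = 3 each), and in the dark phase 16.6 ± 7.16 (ZT13), 12.5 ± 4.21 (ZT17) and 12.2 ± 2.46 (ZT21). The samples of neighbouring time points overlapped throughout.

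For each main circle with tests, the tested circRNAs of other genes with the most similar pattern over the 36 samples were found by Pearson correlation of log2 levels. Among them were circles of Unc79 for Hipk3 (0.870), Stk39 for Zfp644 (0.897), Ankib1 (0.713) and Rprd1b (0.695) for Zfp609, Kcnh5 for Cdyl (0.623) and Elavl3 for Rtn4 (0.514). The median over all circRNAs compared was 0.204 for Hipk3, 0.234 for Zfp644, 0.0980 for Zfp609, -0.00213 for Cdyl and 0.0907 for Rtn4. All of these values share the same libraries, including the shallow pair in which Hipk3 and Zfp644 were lowest, and the part of those libraries in the correlations was not tested.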

How the data were processed

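Total RNA of 36 mouse samples was sequenced after ribosomal RNA depletion. Per the submitters' processing notes reads were aligned with BWA to GRCm38, and per the study's methods the authors called back-splice junctions with CIRI2 at default settings. The deposited values are raw counts of junction reads per circRNA and sample, in a table per tissue. The tables were joined by position, with 0 where a circRNA was not listed, and 1 column that names no labelled sample was not used.

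Hosts came from GENCODE M21, and junction sequences from its transcripts. CircRNAs found in at least 2 replicates of a time point were kept and filtered by filterByExpr. They were tested in edgeR 4.0.16 (R 4.3.3; TMM, quasi-likelihood, Benjamini-Hochberg over all circRNAs tested), with checks on simulated data. DESeq2 1.42.0 was an alternative, and others were size factors, total reads, no filter, a replicate block, each sample left out, and, chosen after seeing the data, the 2 libraries with the fewest reads left out. Shares of the main circle were compared by 2-sided permutation tests (100000 resamples, labels exchanged within a time point) for hosts with at least 2 circles and reads in at least 15 samples of each tissue.

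Named circles were the main and the second circle of each gene and those that passed the filter. Some markers and similar circRNAs are not reported here. The members and lists were chosen with earlier results of these data known. Replicates are labelled as biological. No replicate pair agreed within sampling noise. Depth ran from 6754 to 73252 circular reads per sample, so circles with few reads could not be compared.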

Additional observations from a re-analysis of the deposited data

Results flagged for a closer look

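In 56 groups of a tissue and phase, the highest or lowest sample was compared with the others by Dixon's gap criterion, and 11 values from 9 samples stood apart. The criterion picks out about 1 in 20 groups by chance where values are not tied. That rate does not hold for the 3 Hipk2 values and the Rtn4 value below, since the other samples were tied at 100.0% and any lower value is then picked out. For the Hipk3 exon 2 circle these were hippocampus ZT13 replicate 1, with 23.0 normalized reads (10 reads) where the other dark-phase samples had 51.2 to 74.4, and cortex ZT9 replicate 3, with 24.4 (12 reads) where the other light-phase samples had 53.0 to 71.4. They are the libraries with the fewest reads of their tissues. The Zfp609 exon 2 circle reached 56.3 normalized reads (162 reads) in hippocampus ZT1 replicate 3, the deepest library, where the others had 33.1 to 39.4.

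In the other 8 the percent of a gene's reads in its main circle stood apart. Hipk2 had 60.0% (3 of 5 reads) in hippocampus ZT5 replicate 3, 0% in hippocampus ZT21 replicate 3 (0 of 3 reads) and 0% in cortex ZT21 replicate 2 (0 of 2 reads), where the other samples of the same tissue and phase with reads were at 100.0%. Zfp609 had 82.1% in cortex ZT5 replicate 1 (others 92.3% to 100.0%) and 80.6% in cortex ZT13 replicate 3 (others 90.5% to 100.0%). Cdyl had 40.9% in hippocampus ZT21 replicate 1 (9 of 22 reads, others 59.3% to 76.5%), and Rtn4 had 90.0% in hippocampus ZT5 replicate 3 (18 of 20 reads, others at 100.0%). Zfp644 had 0% in hippocampus ZT13 replicate 1 (0 of 7 reads), where the others had 25.4% to 44.4%. The causes were not tested.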

How the results depend on the processing

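The Cdyl tissue calls (exon 5 circle and gene sum) held under all alternatives run. The log2 difference of the exon 5 circle stayed between -0.73 and -0.62 over 6 alternatives (edgeR or DESeq2, adjusted p from 2.61e-06 to 0.00756) and between -0.72 and -0.62 with each sample left out. Other results moved as follows, and the cause was not tested.

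Without the filter on low counts the tissue calls were 346 of 6656 circRNAs, with 1 listed circle and 1 listed gene sum instead of 2, since the Zfp644 exon 4 to exon 3 circle (0.75, edgeR adjusted p = 0.0981) and the Zfp644 sum (0.34, edgeR adjusted p = 0.131) no longer passed. Over its 6 alternatives the adjusted p of that circle ran from 0.0141 to 0.0981 (edgeR or DESeq2). The time calls without the filter were 14 in hippocampus and 12 in cortex, the phase calls in hippocampus 4, and the rhythm calls 614 of 5505 in hippocampus (11.2%) and 521 of 4790 in cortex (10.9%). Of the listed circles tested, 4 of 25 (16.0%) and 2 of 24 (8.33%) had a rhythm call, each with 53 reads or fewer. DESeq2 called 0 in the cortex time test and 1 in each rhythm test, and scaling by total reads called 1 for phase in hippocampus. Share calls were 7 with at least 10 reads a sample, 11 with pooled reads, 6 with circles in at least 2 replicates and 1 without the 2 libraries with the fewest reads.

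Signs turned for values near 0. The Hipk3 tissue difference was 0.0169 with total reads, 0.0486 without the filter and 0.00538 without the 2 libraries, and the Hipk3 sum was 0.0171 with total reads and 0.0290 without the filter. For phase in hippocampus the longer Cdyl circle was 0.000293 with total reads and the Zfp644 exon 4 to exon 3 circle -0.0848 without the filter. For phase in cortex the Cdyl exon 5 circle was 0.0113 with total reads and 0.0837 without the filter, and without the 2 libraries Hipk3 was -0.0358 and Zfp609 -0.0153.

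The replicate numbers did not pair the samples: same-numbered hippocampus and cortex samples of a time point had correlations of deviations from -0.170 to 0.150, with 1 of 18 over 0.1, and 4 of 18 hippocampus samples correlated best with their own number. With the number as a replicate block 187 circRNAs, 1 listed circle and 1 listed gene sum were called between tissues, and 0 shares. The Zfp644 circle had 0.73 (edgeR, adjusted p = 0.0837), the Zfp644 sum 0.31 (0.0554), the Cdyl exon 5 circle -0.66 (0.000284) and the Hipk3 sum 0.00683 (0.972).

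With each sample left out in turn, tissue calls ran from 212 to 245 with 1 to 3 listed circles, gene sums from 239 to 273 with 1 to 2 listed, the time tests from 0 to 1 in either tissue, phase in hippocampus from 0 to 1, and shares from 0 to 6. The Zfp644 exon 4 to exon 3 circle did not pass without hippocampus ZT5 replicate 2, ZT13 replicate 2 or ZT21 replicate 3, or cortex ZT9 replicate 1 or ZT17 replicate 1 (0.62 to 0.68, edgeR adjusted p from 0.0502 to 0.0716). The Zfp644 sum did not pass (edgeR, adjusted p from 0.0517 to 0.0933) without hippocampus ZT1 replicate 2, ZT5 replicate 3, ZT9 replicate 2, ZT13 replicate 2, ZT21 replicate 2 or ZT21 replicate 3, or cortex ZT1 replicate 3, ZT5 replicate 1, ZT13 replicate 1, ZT13 replicate 3, ZT17 replicate 3 or ZT21 replicate 1.

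The hippocampus time test gave 1 call without ZT5 replicate 2 or ZT17 replicate 3, and the cortex time test gave 0 without ZT1 replicate 1 or replicate 3. The hippocampus phase test gave 1 call without each of ZT5 replicate 2, ZT17 replicate 1 and ZT17 replicate 2. Shares had 0 calls without cortex ZT5 replicate 1, ZT13 replicate 2 or ZT13 replicate 3, 1 without hippocampus ZT5 replicate 3, ZT21 replicate 1 or ZT21 replicate 3 or cortex ZT21 replicate 1 or replicate 3, 5 without hippocampus ZT13 replicate 3, ZT17 replicate 2 or ZT21 replicate 2 or cortex ZT5 replicate 3 or ZT9 replicate 2, and 6 without hippocampus ZT13 replicate 2 or cortex ZT1 replicate 1 or replicate 3.

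Signs turned in these runs for the Hipk3 tissue difference (-0.0576 to 0.0617) and sum (-0.0429 to 0.0413). They turned for phase in hippocampus of the longer Cdyl circle (-0.15 to 0.0635), the Cdyl exon 5 circle (-0.16 to 0.0167), the Zfp644 exon 4 to exon 3 circle (-0.10 to 0.12) and Zfp609 (-0.18 to 0.0134). In cortex they turned for the Cdyl exon 5 circle (-0.0758 to 0.11), Hipk3 (-0.0358 to 0.16) and Zfp609 (-0.0153 to 0.23), and for the Zfp609 share (-0.641 to 0.726 percentage points). Depth limits the results: no circle of Hipk2 or Stau2 passed the filter on low counts, and 3 samples a time point leave wide intervals for circles with few reads.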

Other observations

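Each paralog had fewer circular reads than its listed relatives. Of 8 paralogs 7 had reads, with a median main-circle share of 72.1% and a median of 2 circles. The listed genes had medians of 87.7% and 6, and that share was the value of Hipk2, which had 57 reads. The lists were not matched for reads. Hipk1 had 14 reads, Cdyl2 13, Stau1 43, Rtn1 156, Rtn2 109 and Rtn3 117, and Hipk4 had none. Zfp608, the paralog of Zfp609, had 221 reads and was the only paralog past the filter, with 166 reads in hippocampus and 55 in cortex and a log2 difference of 1.43 (SE 0.41, edgeR adjusted p = 0.00611), where Zfp609 had 0.24 and did not pass. The difference between these paralogs was not tested.

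Of 12 other hosts of widely studied circles, all had reads and 9 were tested as sums. Over all 802 host gene sums tested, 252 were called (31.4%). Slc8a1, a sodium-calcium exchanger gene (0.42, edgeR adjusted p = 8.50e-05), and Tulp4 (0.31, edgeR adjusted p = 0.000600) were higher in hippocampus. Rims2, a gene of the presynaptic active zone (-0.42, edgeR adjusted p = 0.000870), and Homer1, a postsynaptic scaffold gene (-0.61, edgeR adjusted p = 0.00291), were higher in cortex. Fbxw7, Rmst, Camsap1, Itch and Pan3 did not pass. Mbnl1, Foxo3 and Smarca5, whose circles are also widely cited, had 8, 30 and 2 reads, fewer than any listed gene (Hipk2 had 57). The median main-circle share of the 12, including these hosts with few reads, was 77.1% with a median of 8 circles.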
